A study of Homo sapiens with 12 samples.

Results

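Amino acids enter mammalian cells through membrane carriers of the solute carrier (SLC) families, and 8 such genes are described here: SLC7A5, SLC7A6, SLC43A1, SLC7A1, SLC1A5, SLC1A4, SLC38A1 and SLC38A2. They were chosen by gene symbol as carriers of neutral and cationic amino acids, with earlier results of these data known. They are not all such carriers, and others are described below. All 8 were found among the 17520 genes of the expression table, and their gene bodies held 63 of the 63578 m6A sites listed with insulin and Torin1 and 168 of the 96671 sites listed with insulin alone. N6-methyladenosine (m6A) is a methyl mark on adenosines inside mRNA. The cells were HEK293E, a human embryonic kidney line. In the insulin+Torin1 groups, serum-starved cells were pretreated with Torin1, which blocks the kinase mTOR, at 250 nM, before 200 nM insulin for 30 h, and in the insulin groups cells were starved in the same way and received the insulin alone. Each condition had 3 input mRNA libraries and 3 miCLIP libraries, in which an antibody against m6A is crosslinked to RNA and substitutions in the reads mark methylated adenosines. All libraries came from starved cells that received insulin, and cells without insulin were not analysed here.

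The mTOR complex mTORC1 senses amino acids and growth factors and promotes protein synthesis. Amino acid carriers lie upstream of it, since uptake of leucine, arginine and glutamine feeds its activation. Several of their genes are also known targets of the transcription factor ATF4, which acts in amino acid shortage and downstream of mTORC1. SLC7A5 (also called LAT1) and SLC43A1 (LAT3) carry large neutral amino acids such as leucine, SLC7A6 exchanges cationic for neutral amino acids, and SLC7A1 (CAT1) takes up arginine and lysine. SLC1A5 (ASCT2) and SLC1A4 (ASCT1) are sodium-dependent exchangers of small neutral amino acids, glutamine among them for SLC1A5. SLC38A1 and SLC38A2 (SNAT1 and SNAT2) take up glutamine and other small neutral amino acids together with sodium.

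The totals of the expression table were 11418114 to 11438881 normalized units per insulin+Torin1 library and 12424643 to 12528454 per insulin library. One read was estimated to be worth 1.03 to 1.70 units in the 5 libraries where low values left gaps between whole units. This would correspond to 7320000 to 11800000 reads, and is least sure where the step is near 1 unit. In insulin+Torin1 replicate 1 no such grid was visible at whole units. Of the markers checked for the line, KRT8, KRT18 and VIM were higher and NEFM lower with Torin1 (limma), PAX2 was too low to be tested (mean under 10 units in both conditions) and NEFL was not analysed here. The blood markers PTPRC and CD3E were at 0 or 1 unit in every library, and HBA1 averaged 1.67 units with Torin1 and 22.7 with insulin. VWF, DCN, ALB and APOA1, markers of other tissues, averaged under 10 units in both conditions. The labels name 3 biological replicates without saying what separated them, and the p-values rest on the spread between those samples. In bulk RNA, fewer cells and less RNA per cell cannot be told apart.

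With Torin1, mRNA of 7 of the 8 carriers fell and that of 1, SLC43A1, rose. Levels are in the normalized units of the deposited table, and a gene was called at an adjusted p below 0.05 in a limma fit over 13842 genes. Because 42.5% of all tested genes were called lower and 43.4% higher, single calls are common here, and the direction and size carry the description. A change beyond 1.5-fold was called downward for 6 members, against 22.5% of tested genes, and upward for 1, against 25%. Because the members were chosen with earlier results of these data known, these numbers are no test of the group. The 3 insulin+Torin1 libraries lay outside the range of the 3 insulin libraries for all 8 members, and for 86.3% of tested genes. The median log2 fold change of the members was -1.14, against 0.02 over all tested genes.

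**Figure D1:**
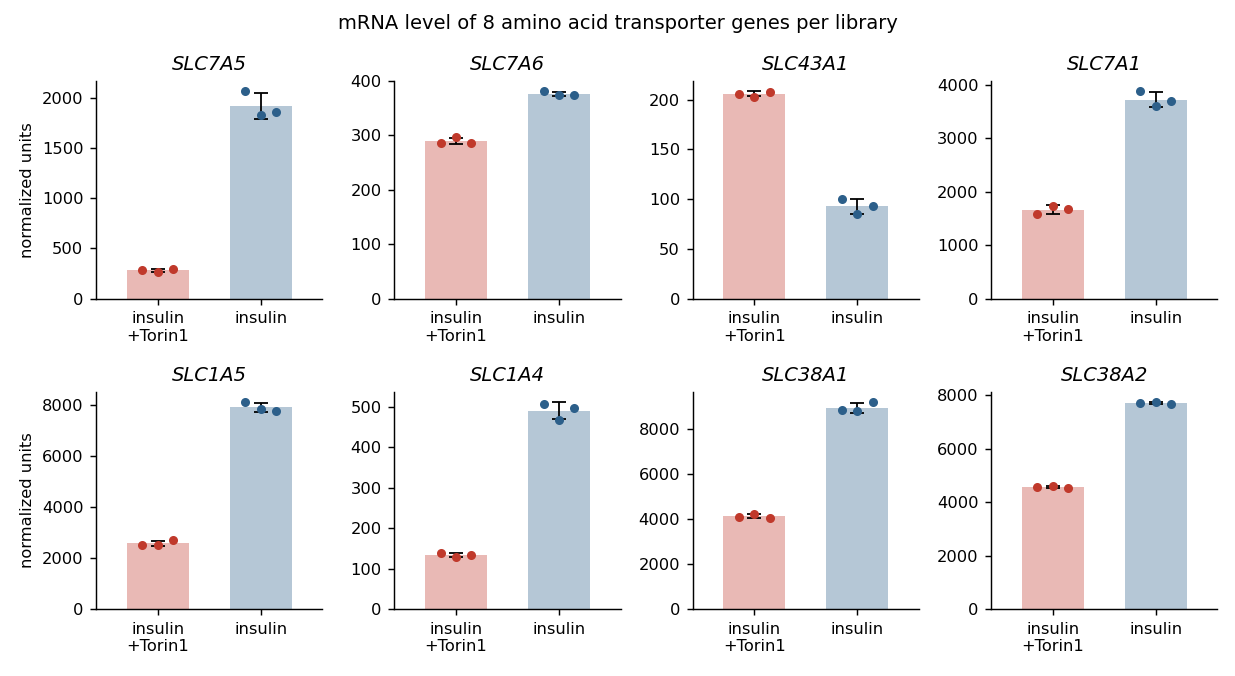
Normalized mRNA units of each of the 8 carrier genes (y axes start at 0), insulin+Torin1 to the left of insulin; points are libraries, bars means and error bars SD (n = 3 each). SLC43A1 is the gene with the higher bar in insulin+Torin1, and in the other 7 panels the insulin bar is higher.

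Among the carriers of large neutral amino acids, SLC7A5 had the largest fall of the 8. It measured 281, 269 and 299 units in the insulin+Torin1 libraries, against 2062, 1827 and 1857 units in the insulin libraries. All 3 insulin+Torin1 values lay far below all 3 insulin values, and the mean with Torin1 was 14.8% of the mean with insulin. The log2 fold change was -2.75 (SE 0.0569, 95% interval -2.87 to -2.64; limma adjusted p = 8.27e-22), lower than that of all but 1.89% of tested genes. SLC7A5 works as a pair with the heavy chain SLC3A2, which also serves SLC7A6. SLC3A2 measured 1522, 1459 and 1486 units in insulin+Torin1 libraries and 4799, 4590 and 4122 units in insulin libraries, a log2 fold change of -1.59 (limma adjusted p = 1.26e-19). Both chains of the pair were thus lower in each insulin+Torin1 library, the SLC7A5 mRNA by the larger factor.

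SLC43A1, which carries branched-chain amino acids and phenylalanine without a partner chain, went the other way. It measured 206, 203 and 208 units with Torin1, against 100, 85 and 93 units with insulin, and the groups did not overlap. The log2 fold change was 1.14 (SE 0.109, 95% interval 0.92 to 1.37; limma adjusted p = 1.15e-09). The call beyond 1.5-fold (limma adjusted p = 5.59e-05) was lost with quantile normalization, where the log2 fold change was 0.79 (limma adjusted p = 0.0743 beyond 1.5-fold).

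SLC7A6 had the smallest change of the members in the values as deposited, though with quantile normalization SLC38A2 (log2 fold change -0.51) moved less than SLC7A6 (-0.55). It measured 286, 297 and 287 units with Torin1 and 381, 374 and 375 units with insulin, so the groups were separate but close. The fall was called (log2 fold change -0.38, SE 0.0692; limma adjusted p = 2.82e-05) but did not exceed 1.5-fold. The last 3786 nt of SLC7A6 are overlapped by SLC7A6OS on the other strand, and whether reads were counted by strand is not given in the sources used here, so reads of the pair cannot be told apart. SLC7A6OS measured 71, 66 and 50 units with Torin1 and 43, 58 and 38 units with insulin.

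The cationic carrier SLC7A1, which brings in arginine, measured 1582, 1740 and 1684 units with Torin1, against 3878, 3596 and 3692 with insulin. Every insulin+Torin1 library was below every insulin library, at a mean of 44.8% of the insulin level. The log2 fold change was -1.16 (SE 0.0401, 95% interval -1.24 to -1.07; limma adjusted p = 7.91e-18).

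Both members of the SLC1 family fell. SLC1A5, the glutamine exchanger, measured 2513, 2529 and 2716 units with Torin1 and 8128, 7871 and 7792 units with insulin. The Torin1 mean was 32.6% of the insulin mean, with a log2 fold change of -1.62 (SE 0.0345, 95% interval -1.69 to -1.55; limma adjusted p = 1.37e-21). SLC1A4, which exchanges alanine, serine and cysteine, measured 138, 129 and 135 units with Torin1, against 507, 466 and 497 with insulin. Here the Torin1 mean was 27.3% of the insulin mean, and the log2 fold change was -1.86 (SE 0.0802, 95% interval -2.03 to -1.70; limma adjusted p = 4.76e-16).

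The SLC38 pair of glutamine carriers fell less than the SLC1 pair. SLC38A1 measured 4107, 4243 and 4071 units with Torin1 and 8852, 8832 and 9216 units with insulin, a log2 fold change of -1.11 (95% interval -1.18 to -1.05; limma adjusted p = 1.38e-19). SLC38A2, an adaptive carrier known to be induced by amino acid shortage, measured 4572, 4597 and 4538 units with Torin1, against 7715, 7740 and 7687 with insulin. Its groups were apart by many times their own spread, at a log2 fold change of -0.76 (95% interval -0.82 to -0.70; limma adjusted p = 5.26e-17). The fall of SLC38A2 beyond 1.5-fold (limma adjusted p = 1.03e-05) was not called after scaling to equal totals (log2 fold change -0.63, limma adjusted p = 0.133) or with quantile normalization (-0.51, limma adjusted p = 1).

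In the order of log2 fold changes, SLC7A5, SLC1A4, SLC1A5, SLC7A1, SLC38A1, SLC38A2, SLC7A6 and SLC43A1, the 95% intervals of SLC7A1 and SLC38A1 overlapped, and those of the other neighbouring pairs did not. With quantile normalization the order turned within the pair SLC7A1 (-0.86) and SLC38A1 (-0.87) and within the pair SLC38A2 and SLC7A6. After scaling to equal totals, the median over all tested genes was at 0.14 in place of 0.02. Under it SLC7A5 was at -2.63, SLC1A4 at -1.74, SLC1A5 at -1.49, SLC7A1 at -1.03, SLC38A1 at -0.99, SLC7A6 at -0.25 and SLC43A1 at 1.27. All 8 members kept their direction and their call at an adjusted p below 0.05 (limma) in the 12 alternatives of scaling, filter, pseudocount, block and left-out library.

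The other amino acid carriers, a list of 37 genes set by what the proteins carry, were mixed. Of these, 36 were in the table and 27 passed the filter on low values. In the limma fit 14 were lower and 6 higher with Torin1, and 7 were not called, with a median log2 fold change of -0.54. Beyond 1.5-fold, 11 were lower and 4 higher. Of the genes called lower, SLC43A3 and SLC7A9 passed the filter only through the insulin libraries, where they are high, and so had to differ. Without them, a choice made after the values were seen, 12 of 25 were lower and 6 higher, and 9 and 4 beyond 1.5-fold. The median log2 fold change of these 25 was -0.44. The lowest was SLC7A11, the cystine carrier, which measured 168, 169 and 171 units with Torin1, against 3919, 3909 and 4173 with insulin (log2 fold change -4.55). SLC6A9, a glycine carrier, averaged 78.0 ± 7.94 units with Torin1 and 1241 ± 18.5 with insulin (SD, n = 3 each; log2 fold change -3.98, limma adjusted p = 4.3e-22). SLC7A7, which carries cationic and neutral amino acids, measured 12, 14 and 13 units with Torin1, against 85, 77 and 78 with insulin (log2 fold change -2.53). The values of SLC43A3 were 4, 2 and 4 units with Torin1 and 19, 21 and 33 with insulin, and those of SLC7A9 were 2, 2 and 3 with Torin1 and 14, 12 and 18 with insulin. Both are given as values, since the filter used the group in which they are high.

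SLC38A9, a lysosomal arginine sensor of the mTORC1 pathway, showed the largest rise of the list. It averaged 467 ± 19.1 units with Torin1, against 86.0 ± 3.61 units with insulin (SD, n = 3 each; log2 fold change 2.43, limma adjusted p = 2.75e-17). SLC1A1, a glutamate carrier, averaged 136 ± 11.5 units with Torin1 and 28.0 ± 7.81 with insulin (log2 fold change 2.28). SLC7A2, a cationic carrier of the same family as SLC7A1, averaged 2645 ± 69.1 units with Torin1 and 1427 ± 65.3 with insulin (log2 fold change 0.89, limma adjusted p = 1.2e-15). SLC7A3, another cationic carrier of that family, averaged 128 ± 9.45 units with Torin1 and 219 ± 21.3 with insulin (log2 fold change -0.77, limma adjusted p = 4.26e-07). Of these 3 cationic carriers, SLC7A1 and SLC7A3 were thus lower and SLC7A2 was higher with Torin1. SLC6A15, a neutral carrier, was at 0.87 and SLC38A6 at 0.48.

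**Figure D2:**
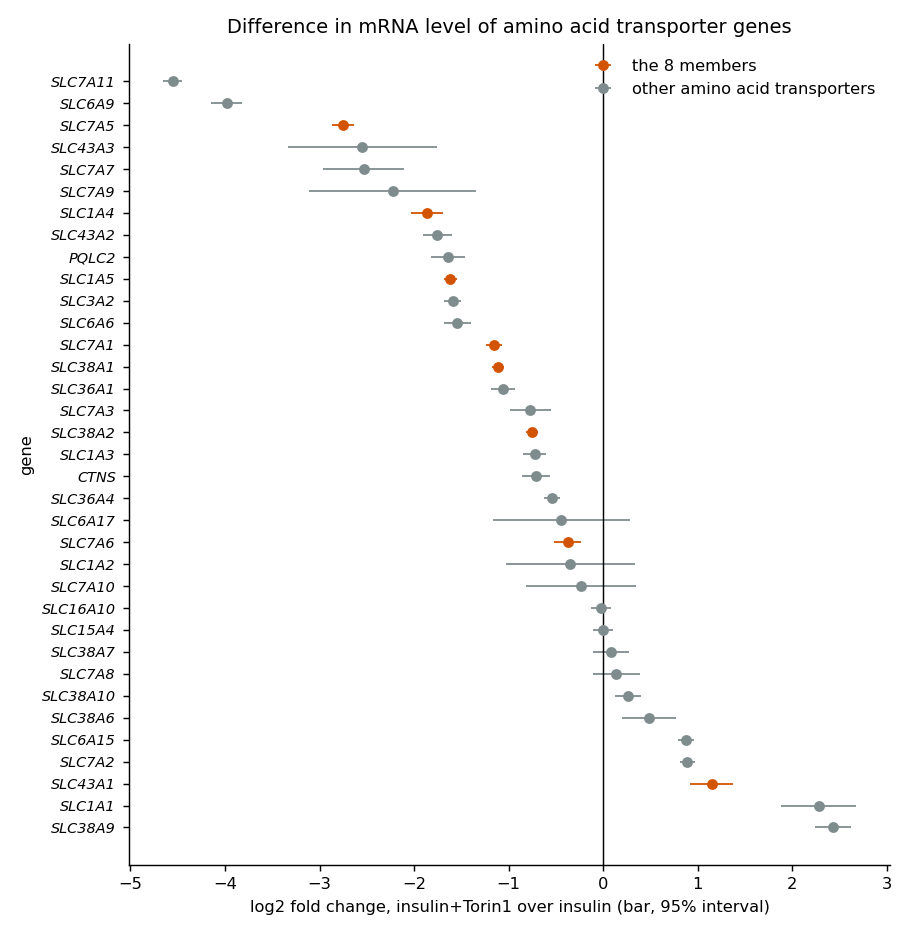
Log2 fold change of insulin+Torin1 over insulin (x axis) for the 8 members (orange) and the 27 tested other amino acid transporter genes (grey); bars are 95% intervals from limma. Members run from SLC7A5 at -2.75 to SLC43A1 at 1.14.

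Over the 6 input libraries, the genes whose log2 levels followed SLC7A5 most closely were KLHL21 and CBS (an enzyme of cysteine synthesis), with Pearson r of 0.99992 and 0.99989. For SLC1A4 they were BZW1 and WDR74, and for SLC1A5 ELMSAN1 and PGAM5. The 6 libraries form 2 groups, so r above 0.99 was common, with 2399, 2352 and 2436 tested genes for SLC7A5, SLC1A4 and SLC1A5.

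Promoter sequences of RefSeq (GRCh38.p14; 250 bases before to 50 after an annotated start) were matched by symbol for all 8 genes, with 13 windows. Searched on both strands, TGATGNAA, the letters of the composite element bound by ATF4 with C/EBP proteins (CARE), was in 4 of 13 windows, 1 each of SLC7A1, SLC1A4, SLC1A5 and SLC38A1, and in 3.62% of all 35116 windows. The E-box CACGTG, which reads the same on both strands, was in 3 of 13 windows, 1 each of SLC7A5, SLC1A5 and SLC43A1, and in 7.26% of all windows. No match of one overlapped a match of the other. Both motifs thus occurred in members that fell, and CACGTG also in SLC43A1, which rose. SLC38A2 and SLC7A6, which also fell, had a match of neither, and SLC7A5 had none of the CARE letters. Counted by gene, 4 of the 8 members held the first motif and 3 the second, against 4.46% and 8.77% of all genes with a window. Of 26 other carriers with a window, 2 genes held the first and 5 the second. A match is a description of the letters and no evidence of binding. The windows of SLC7A1, SLC1A4 and SLC38A1 are shown for their CARE match and that of SLC7A5, the gene that fell most, for its E-box, with the match in capitals.
SLC7A5, chr16:87869458-87869757, minus strand: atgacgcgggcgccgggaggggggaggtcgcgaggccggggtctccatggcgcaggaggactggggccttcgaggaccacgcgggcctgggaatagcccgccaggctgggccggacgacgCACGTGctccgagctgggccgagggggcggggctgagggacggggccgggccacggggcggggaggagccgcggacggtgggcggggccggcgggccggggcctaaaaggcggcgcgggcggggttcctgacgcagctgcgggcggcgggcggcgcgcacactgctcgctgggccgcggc
SLC7A1, chr13:29595639-29595938, minus strand: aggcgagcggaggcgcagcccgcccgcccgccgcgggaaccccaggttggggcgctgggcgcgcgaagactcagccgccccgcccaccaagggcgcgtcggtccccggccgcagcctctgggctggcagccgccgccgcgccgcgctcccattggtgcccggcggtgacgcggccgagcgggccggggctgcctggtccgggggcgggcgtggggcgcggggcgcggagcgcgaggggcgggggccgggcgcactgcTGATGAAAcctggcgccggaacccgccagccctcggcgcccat
SLC1A4, chr2:64989149-64989448, plus strand: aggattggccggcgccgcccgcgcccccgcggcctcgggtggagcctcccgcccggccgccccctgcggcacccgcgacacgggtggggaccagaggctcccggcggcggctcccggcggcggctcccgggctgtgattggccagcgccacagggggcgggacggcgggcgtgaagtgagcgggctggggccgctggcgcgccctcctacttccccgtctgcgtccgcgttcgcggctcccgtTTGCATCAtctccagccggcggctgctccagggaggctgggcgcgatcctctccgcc
SLC38A1, chr12:46266467-46266766, minus strand: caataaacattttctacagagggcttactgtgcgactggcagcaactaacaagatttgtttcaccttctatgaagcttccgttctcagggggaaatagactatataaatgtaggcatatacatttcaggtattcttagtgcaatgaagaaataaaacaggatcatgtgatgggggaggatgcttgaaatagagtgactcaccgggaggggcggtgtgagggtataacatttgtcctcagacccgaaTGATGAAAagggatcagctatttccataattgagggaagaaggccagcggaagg

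The CARE letters began 7 bases after the outermost start of SLC7A1. In SLC1A4 (reverse strand) they began 7 bases before an annotated start inside the gene, and in SLC38A1 4 bases before such an inner start. In SLC7A5 the E-box began 130 bases before the outermost start. The matches of SLC1A5 also lay at inner starts, the CARE 97 bases and the E-box 50 bases before the start of their own windows.

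For m6A, each condition had 1 list of sites, in which each position stands under 1 replicate, so numbers of sites have no replicate test. Positions are on hg38, and whether a site is exonic or in a UTR was not analysed here. Replicate 2 listed 1552 sites with Torin1 and 39670 with insulin over the whole genome, whereas replicate 1 listed 56298 and 50656. All members but SLC43A1, 7 of 8, had fewer sites with Torin1 than with insulin, against 59.2% of 9254 genes with a site. Under replicate 1 alone, where the Torin1 list is the longer one, 7 members again had fewer sites with Torin1, against 33.7% of 8711 genes. Leaving out the sites of insulin replicate 1 left 4 members with fewer sites with Torin1, 3 with more and 1 with equal numbers. Leaving out those of insulin replicate 2 left 6 with fewer, and leaving out those of insulin+Torin1 replicate 1 left 8. The mRNA of those 7 genes was also lower with Torin1, and its part in the number of sites was not tested.

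**Figure D3:**
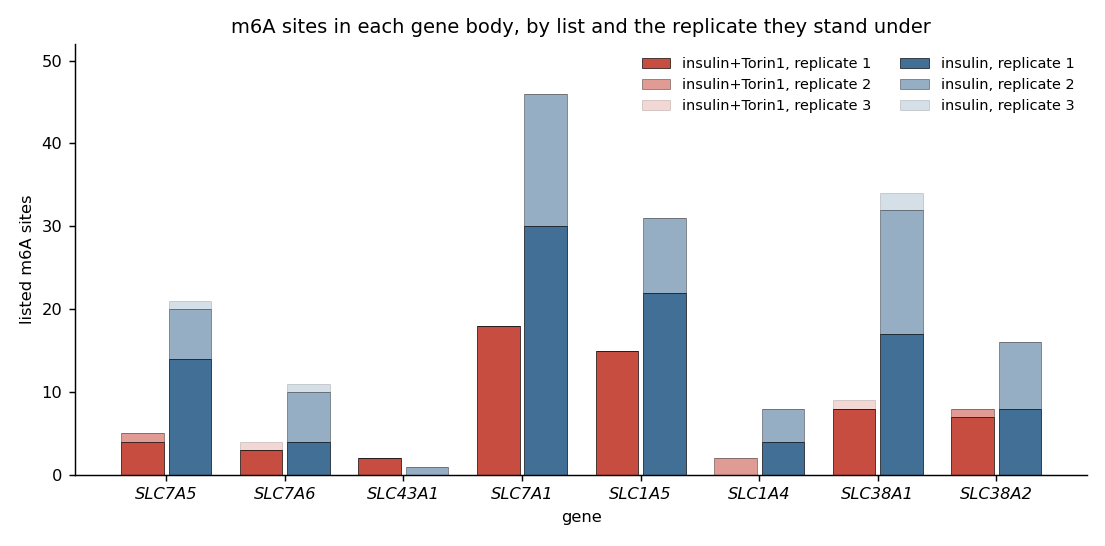
Number of listed m6A sites (y axis) in the body of each gene on its own strand, insulin+Torin1 (red) left of insulin (blue), shaded by the replicate a site is listed under. SLC7A1 has 18 and 46 sites and SLC1A5 has 15 and 31.

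SLC7A1 (chromosome 13, 29509414 to 29595688, minus strand) held the most sites, 18 with Torin1 and 46 with insulin, and 18 and 30 under replicate 1. SLC1A5 (chromosome 19, 46774883 to 46788594, minus strand) held 15 and 31, and 15 and 22 under replicate 1. SLC38A1 (chromosome 12, 46183063 to 46269043, minus strand) held 9 and 34, and 8 and 17 under replicate 1, but 9 and 17 without insulin replicate 1 and 1 and 34 without insulin+Torin1 replicate 1. Of its 34 insulin sites, 26 rested on 1 substituted read. When at least 2 substituted reads were required, SLC38A1 held a nearly equal 7 and 8, SLC7A1 held 9 and 29, and SLC1A5 held 12 and 22. In these 3 genes the Torin1 numbers were the lower ones under replicate 1 as well. Without the sites of insulin replicate 1 the order turned, to 18 and 16 sites in SLC7A1 and 15 and 9 in SLC1A5. Without those of insulin+Torin1 replicate 1, neither gene had a site left with Torin1.

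SLC7A5 (chromosome 16, 87830023 to 87869507, minus strand) held 5 sites with Torin1 and 21 with insulin, and 4 and 14 under replicate 1. Without the sites of insulin replicate 1 it held 5 and 7, and without those of insulin+Torin1 replicate 1 it held 1 and 21. SLC38A2 (chromosome 12, 46358188 to 46372773, minus strand) held 8 and 16, but 7 and 8 under replicate 1, and an equal 8 and 8 when either insulin replicate 1 or insulin replicate 2 was left out. SLC7A6 (chromosome 16, 68264526 to 68301819, plus strand) held 4 and 11, and 3 and 4 under replicate 1, with 4 and 7 left without insulin replicate 1 and 4 and 5 without insulin replicate 2. SLC1A4 (chromosome 2, 64988479 to 65023865, plus strand) held 2 and 8 (2 and 4 without either of insulin replicates 1 and 2), and SLC43A1 (chromosome 11, 57484534 to 57515702, minus strand) held 2 and 1. Both SLC43A1 sites with Torin1 stand under replicate 1, so that without it the order turns, to 0 and 1. At most 8 sites per list describe this last pair.

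Of the 63 sites of the insulin+Torin1 list, 49 were also in the insulin list, which is 77.8% of the members' insulin+Torin1 sites and 29.2% of their insulin sites. In the whole lists these shares were 43.1% and 28.3%. All 15 SLC1A5 sites and 17 of the 18 SLC7A1 sites with Torin1 were at positions also listed with insulin, whereas of the 9 SLC38A1 sites 4 were. Sites opening with the 4-mer GGAC made up 36.5% of the members' insulin+Torin1 sites and 35.7% of their insulin sites, against 32.9% and 31.5% of the whole lists. The last 2000 nt of the gene bodies held 33.3% and 35.7% of the members' sites, against 33.5% and 32.4% of all sites in coding genes.

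The positions differed between the genes. In SLC1A5, 9 of 15 insulin+Torin1 sites and 16 of 31 insulin sites lay within 1000 nt of the annotated start, against 6.60% and 6.39% of sites in all coding genes. Another 6 and 14 lay within 2000 nt of its end, so that the sites formed a cluster at either end. In SLC7A1 no site lay within 1000 nt of the start, and the shared positions ran from 1455 to 5098 nt before the end. Shared positions of SLC7A5 lay 1177 to 2504 nt before the end, and those of SLC38A2 719 to 2716 nt.

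One SLC1A5 site lay inside a promoter window, 41 nt after the first base of the gene. The 5-mer in the site list and the RefSeq letters at that place were the same. The window is shown because it holds this site, with its 5-mer in capitals.
SLC1A5, chr19:46788545-46788844, minus strand: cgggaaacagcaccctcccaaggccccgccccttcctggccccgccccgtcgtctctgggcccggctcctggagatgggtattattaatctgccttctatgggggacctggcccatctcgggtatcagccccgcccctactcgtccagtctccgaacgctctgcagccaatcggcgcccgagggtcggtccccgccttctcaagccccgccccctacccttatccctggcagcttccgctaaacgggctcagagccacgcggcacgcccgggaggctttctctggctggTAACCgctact

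At this position (46788553), 1 of 122 reads was substituted with Torin1, which is 0.820% (Wilson 95% interval 0.145% to 4.50%), and 3 of 135 with insulin, 2.22% (0.759% to 6.33%). These intervals, like the others below, cover counting error only. The 2 values stand under different replicates and their intervals overlap.

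The 3 SLC1A5 positions with the most substituted reads had 78 reads or more in each list. At 46788268 (5-mer aaAct, 326 nt after the start), 28 of 129 reads were substituted with Torin1, or 21.7% (15.5% to 29.6%), and 46 of 180 with insulin, or 25.6% (19.7% to 32.4%). At 46775370 (ggAca, 487 nt before the end), it was 15 of 78 reads, 19.2% (12.0% to 29.3%), with Torin1 and 56 of 153 reads, 36.6% (29.4% to 44.5%), with insulin. At 46788108 (gaAct, 486 nt after the start), it was 11 of 111 reads, 9.91% (5.62% to 16.9%), with Torin1 and 28 of 137 reads, 20.4% (14.5% to 27.9%), with insulin. All 3 fractions were lower with Torin1, and none passed the test over all positions (Fisher's exact test, two-sided, adjusted p = 1, 0.204 and 0.411; unadjusted p = 0.5, 0.00683 and 0.0343). The smallest p of the members was at 46775465 (ggAca, 582 nt before the end), a position named after its values were seen. There 7 of 131 reads, 5.34% (2.61% to 10.6%), were substituted with Torin1 and 22 of 139, 15.8% (10.7% to 22.8%), with insulin (Fisher's exact test, adjusted p = 0.191, unadjusted p = 0.00578).

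**Figure D4:**
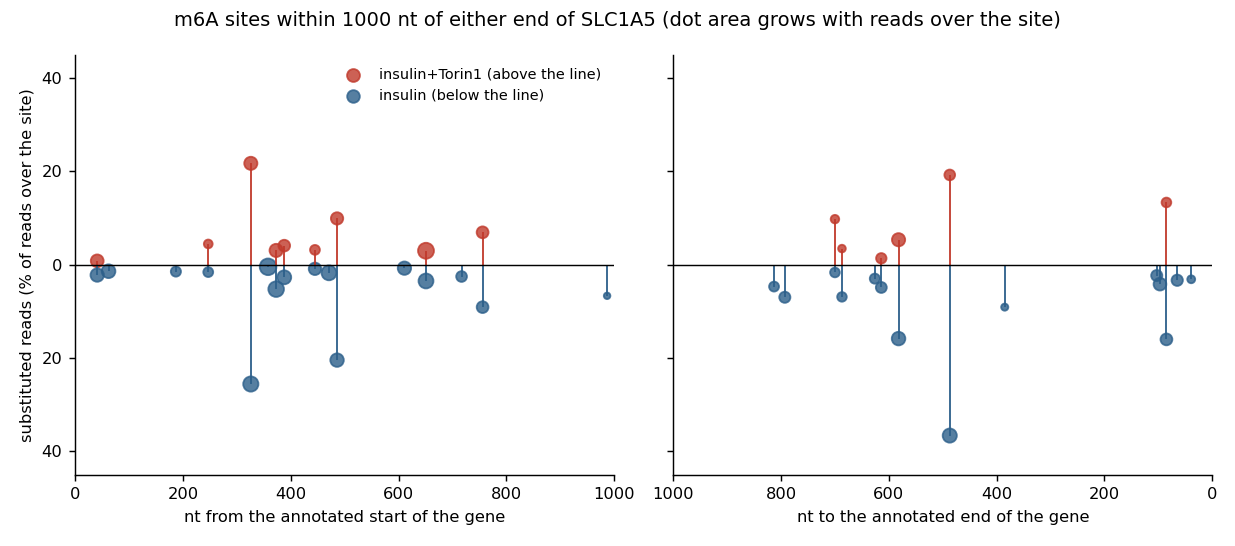
Substituted reads as a percent of reads over the site (y axis) against distance in nt from the annotated start (left) and to the annotated end (right) of SLC1A5, insulin+Torin1 above the line and insulin below it. Dot area grows with the reads over the site; the tallest insulin line, 36.6%, stands at 487 nt before the end, where the insulin+Torin1 value is 19.2%.

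In SLC7A1 the leading shared position was 29514216 (gaAca, 4802 nt before the end), with 3 of 26 reads substituted with Torin1, 11.5% (4.003% to 29.0%), and 12 of 31 with insulin, 38.7% (23.7% to 56.2%; Fisher's exact test, adjusted p = 0.404, unadjusted p = 0.0332). At 29514277 (agAca) it was 3 of 37 reads with Torin1 and 8 of 54 with insulin, and at 29514010 (aaAca) 4 of 26 and 5 of 60. The position with the most substituted reads in the insulin+Torin1 list was 29513970 (tgAca), with 5 of 32 reads, 15.6% (6.86% to 31.8%), against 2 of 57, 3.51% (0.968% to 11.9%), with insulin. Neighbouring SLC7A1 positions thus differed in sign, and the intervals of each pair of values overlap.

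The other members rested on few reads. In SLC7A5, 87832527 (agAct, 2504 nt before the end) had 4 of 32 reads substituted with Torin1 and 10 of 59 with insulin. The next shared SLC7A5 position, 87831200 (ggAca), had 4 of 18 and 6 of 49, and 87831241 (ggAcc) had 1 of 12 and 4 of 34. The remaining one, 87832336 (ggAct), had 3 of 3 reads, 100% (43.9% to 100%), under insulin+Torin1 replicate 2 and 1 of 17, 5.88% (1.05% to 27.0%), under insulin replicate 1. Its intervals do not overlap, but the values stand under different replicates and were not tested. In SLC38A2, 46359278 (agAca) had 8 of 33 reads substituted with Torin1 and 3 of 11 with insulin, 46360869 (tgAca) had 2 of 22 and 3 of 20, and 46358907 (gaAca) had 1 of 8 and 3 of 13. The SLC38A2 site with the most substituted reads in the insulin list, 46361096 (4 of 40), was not in the other list. In SLC38A1, 46188657 (gaAct) had 5 of 28 with Torin1 and 2 of 88 with insulin, and 46183539 (aaAct) had 4 of 21 and 1 of 26, both under different replicates. Under replicate 1 in both lists, 46188817 (agAca) had 3 of 28 and 3 of 49. The leading SLC38A1 site of the insulin list, 46188690 (3 of 69), was not shared. In SLC7A6 the shared position was 68301223 (ggAct), 4 of 35 with Torin1 and 1 of 8 with insulin, and 68301313 led the insulin list with 3 of 14. SLC43A1 shared 57484882 (agAca), 2 of 7 and 1 of 2, and SLC1A4 shared 65021337 (ggAca) and 64989540 (gaAcc), each with 1 read in the insulin+Torin1 list, and 64988533 led its insulin list with 2 of 9. Of the positions in this paragraph, only 87832527, 46360869 and 46188817 had the 20 reads in both lists and the same replicate that the test of fractions required, and none of these 3 was called (Fisher's exact test, adjusted p = 1).

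The test of fractions covered 26 positions in 5 members that were listed under the same replicate in both lists with at least 20 reads in each. Of these, 18 had a lower and 8 a higher fraction with Torin1, and 72.1% of the 7611 positions tested in all genes were lower. Fisher's exact test called 0 of the 26 at an adjusted p below 0.05 (smallest 0.191), against 0.854% of all positions called lower and 0.0131% called higher. At an unadjusted p below 0.05, 4 of the 26 were lower and 0 higher. Of all positions tested in all genes, 10.4% had such a p in either direction. This test compares the reads of 2 libraries and not the conditions.

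Reads over the shared sites were fewer with Torin1 in 4 of 5 members that could be compared. Over the 35 member positions listed under replicate 1 in both lists, there were 1795 reads with Torin1 and 2481 with insulin, so that the Torin1 library held 72.4% of the insulin reads. Over all 16264 such positions of the genome it held 220%. In SLC7A5 the reads were 62 with Torin1 and 142 with insulin, in SLC7A1 432 and 670, in SLC1A5 1183 and 1519, and in SLC38A1 55 and 106. In SLC38A2 they were 63 with Torin1 and 44 with insulin, the reverse order. Taken over the same positions, 8.47% of the members' reads were substituted with Torin1 and 11.9% with insulin, against 4.25% and 7.97% over all positions. Of the members' 1795 and 2481 reads, 1183 and 1519 were of SLC1A5, which thus weighs most in these shares. For SLC1A5 the shares were 8.11% (6.69% to 9.81%) with Torin1 and 13.6% (11.9% to 15.4%) with insulin. Of its 12 positions 10 were lower, against 71.4% of all 16264 positions, so a lower fraction was common in all genes. For SLC7A1 the shares were 7.18% (5.10% to 10.01%) and 8.21% (6.36% to 10.5%), which overlap. SLC38A2 was also lower with Torin1, at 17.5% against 20.45% with insulin. SLC7A5, at 14.5% with Torin1 and 14.1% with insulin, and SLC38A1, at 9.09% and 3.77%, were higher with Torin1. In each of these genes the intervals overlap too.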

How the data were processed

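Expression was measured in 6 input libraries and m6A in 6 miCLIP libraries of poly(A) RNA, 3 per condition, grouped by the sample labels. The submitters' processing notes name the build hg38 and, with no role given, STAR, BWA 0.7.1, DESeq and DESeq2 1.22.2. The deposited expression values were treated as a score, since the authors had normalized them between libraries and rounded them. The test for raw counts was therefore not run. Low values fell on a grid of read steps in 5 libraries. Of values up to 200, 99.1% to 100% fell on it within 0.5 units, against 58.7% to 97.1% by chance. The step was picked for a high share on the grid, so the share is no test of it. The shares were close to those by chance in insulin+Torin1 replicate 2 (99.1% against 97.1%) and insulin replicate 3 (99.2% against 94.9%). The deposited site lists give a fraction per site, the authors' substituted reads divided by reads over the site.

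Log2(value + 1) was fitted with limma 3.58.1 in R 4.3.3, with a variance trend, for genes with at least 10 units in at least 3 libraries, with Benjamini-Hochberg adjustment over all 13842. Fold changes on this scale understate those of low genes. Limma's treat tested for changes larger than 1.5-fold. Both scripts were tested on simulated data. Sites were assigned to RefSeq gene bodies (GRCh38.p14, the assembly of hg38) on the gene's strand, taken from the promoter table. Positions in both lists with at least 20 reads were compared with Fisher's exact test (SciPy 1.17.1). Alternatives were other pseudocounts, no filter, 2 scalings, a replicate block, each library left out, and other minimum reads. Named genes were the 8 members, the 5 largest called falls and rises of the other carriers, SLC3A2 and SLC7A11, the 2 genes most correlated with each of the 3 members that changed most, and the shared sites with the most substituted reads. SLC7A3 was named outside this rule, as a cationic carrier of the family of SLC7A1. Members and lists were chosen with earlier results of these data known, and the promoter motifs after the expression values were seen.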

Additional observations from a re-analysis of the deposited data

How the results depend on the processing

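Of the results on expression, the numbers of members called lower (7) and higher (1) stayed as they were in all 12 alternatives. Member log2 fold changes ranged from -2.79 to -2.63 for SLC7A5, -2.07 to -1.74 for SLC1A4, -1.65 to -1.38 for SLC1A5, -1.19 to -0.86 for SLC7A1, -1.13 to -0.87 for SLC38A1, -0.76 to -0.51 for SLC38A2, -0.55 to -0.25 for SLC7A6 and 0.79 to 1.27 for SLC43A1. Beyond 1.5-fold, 0 members were called higher with quantile normalization. With the replicate block 7 members were lower and 1 higher, as without it. Same-numbered libraries did not deviate together (correlations of -0.02 to 0.01 over genes), so the numbers were not taken as pairs. The other carriers called lower and higher, 14 and 6, were 14 and 9 with equal totals, 15 and 5 with quantile normalization, 16 and 7 with no filter, and 12 to 14 and 6 with a library left out. For m6A, the members held 36 sites with Torin1 and 87 with insulin when 2 substituted reads were required, and 57 and 99 under replicate 1 alone. Leaving out one library at a time gave 6 to 63 sites with Torin1 and 69 to 168 with insulin, the lowest without replicate 1 of that condition, and 103 with insulin without its replicate 2. Without insulin replicate 1, Torin1 minus insulin was 2 sites for SLC7A1 and 6 for SLC1A5, and without insulin+Torin1 replicate 1 it was -1 for SLC43A1, -46 for SLC7A1 and -31 for SLC1A5. The cause was not tested. The count test for raw reads was not run, as the table holds normalized values. No member position passed Fisher's exact test at minimum reads of 10, 20 or 50. Positions listed once per condition limit the m6A numbers, since a site left out with one replicate may have been found by another.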

Other observations

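A few sites lay in the member gene bodies on the strand opposite to the gene. SLC1A5 had 0 of them with Torin1 and 5 with insulin, all within 1196 nt of its annotated start, each with 1 substituted read of 4 to 12. SLC43A1 had 0 and 2, within 387 nt of its start, SLC1A4 0 and 1, SLC7A6 0 and 1, and SLC7A5 1 and 0. They were left out of the numbers per gene.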
